A study of Homo sapiens with 30 samples.

Results

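The MYC and MXD network comprises the transcription factor MYC, its paralog MYCN, their shared partner MAX, and the proteins that compete for MAX. The 9 members considered here are MYC, MYCN, MAX, MXD1, MXD3, MXD4, MXI1, MNT and MGA. They were taken by gene symbol from the 54300 symbols of the count files. All 9 were found, and all 9 passed the filter on low counts that left 21554 symbols for testing.

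The cells were of Jurkat E6-1, a line from a human T cell leukaemia, stimulated with PMA, which activates protein kinase C, together with ionomycin, which lets calcium in. KO cells lacked isoform 1 of SLAMF6, a receptor of the SLAM family, and are named SLAMF6∆17-65 in the labels, and the other cells are labelled WT. The groups were KO cells at 0, 6, 12, 24 and 36 h and WT cells at the same 5 times, with 3 libraries in each of the 10 groups and 30 in all. The cells at 0 h were unstimulated, and cells of both genotypes grew in the same serum-containing medium. None of the later groups was unstimulated, so in comparisons with 0 h activation cannot be told apart from time in culture. Changes on activation are named below in that sense. The labels give the time points without a unit, and hours were taken from the wording of the treatment protocol. The labels do not say whether the KO cells are 1 clone or a pool, nor whether the libraries of a group came from separate cultures. The library titles carry the letter B for KO and A for WT libraries up to 24 h and the letter C for both genotypes at 36 h, and what the letters mark is not stated. If they mark a plate or a day, it cannot be told apart from genotype up to 24 h, nor from time in the comparisons of 36 h with 0 h. At 36 h KO and WT share a letter. The p-values rest on the spread among libraries alone, and that spread may be technical. The title of the series speaks of an overexpressed isoform 3, whereas its design names an isoform 1 knockout, which is the reading used here.

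MYC and MYCN bind DNA as dimers with MAX at E-box sites and raise transcription of genes for ribosome production, nucleotide synthesis and cell growth. MXD1, MXD3, MXD4, MXI1 and MNT also pair with MAX, bind similar sites and bring SIN3 and histone deacetylases to them, so that they act as repressors at sites MYC can occupy. In T cells, stimulation of the antigen receptor is known to induce MYC and with it the growth programme that precedes division, and leukaemic lines such as Jurkat carry high MYC without any stimulus.

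Total counts per library ran from 5.64 to 28.2 M with a median of 20.5 M. The 10 T cell markers summed to 3910 to 6060 CPM (counts per M, scaled by TMM) in KO libraries and to 4560 to 6410 CPM in WT libraries. Markers of monocytes and of adherent lines each summed to no more than 6.45 CPM in any library, erythroid markers to no more than 1.11 CPM, and B cell markers to 10.4 to 31.4 CPM in KO libraries and 17.4 to 33.3 CPM in WT libraries, with CD79A at 8.66 to 32.2 CPM making up nearly all of the last. SLAMF6 transcripts averaged 19.3 ± 1.47 CPM in KO cells and 21.2 ± 3.4 CPM in WT cells at 0 h (SD, n = 3 each), and 139 ± 12.8 CPM in KO cells and 105 ± 5.9 CPM in WT cells at 36 h. Counts per gene add the isoforms together, so they do not check the loss of isoform 1.

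Of the 30 libraries, 4 lay farther from the others of their group than the rest did. The root mean square log2 distance from the other libraries of the group, over 9151 genes, was 0.34 to 0.398 in these 4 and 0.152 to 0.286 in the others. They are KO 6 h replicate 2, KO 12 h replicate 1, KO 24 h replicate 3 and WT 24 h replicate 3. In all 4, MYC and the activation gene IL2 departed from the rest of the group in the same direction. IL2 stood at 26.9 CPM in KO 6 h replicate 2, against 108 and 104 CPM in the other KO libraries of that time, and at 49.9 CPM in KO 12 h replicate 1, against 10.7 and 12.6 CPM. It stood at 179 CPM in KO 24 h replicate 3, against 92.4 and 92.7 CPM, and at 74.5 CPM in WT 24 h replicate 3, against 30.1 and 28.3 CPM. Where leaving them out moved a call of a member, the value without them is given beside it or in the closing section. The part of activation strength in those results was not tested.

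**Figure D1:**
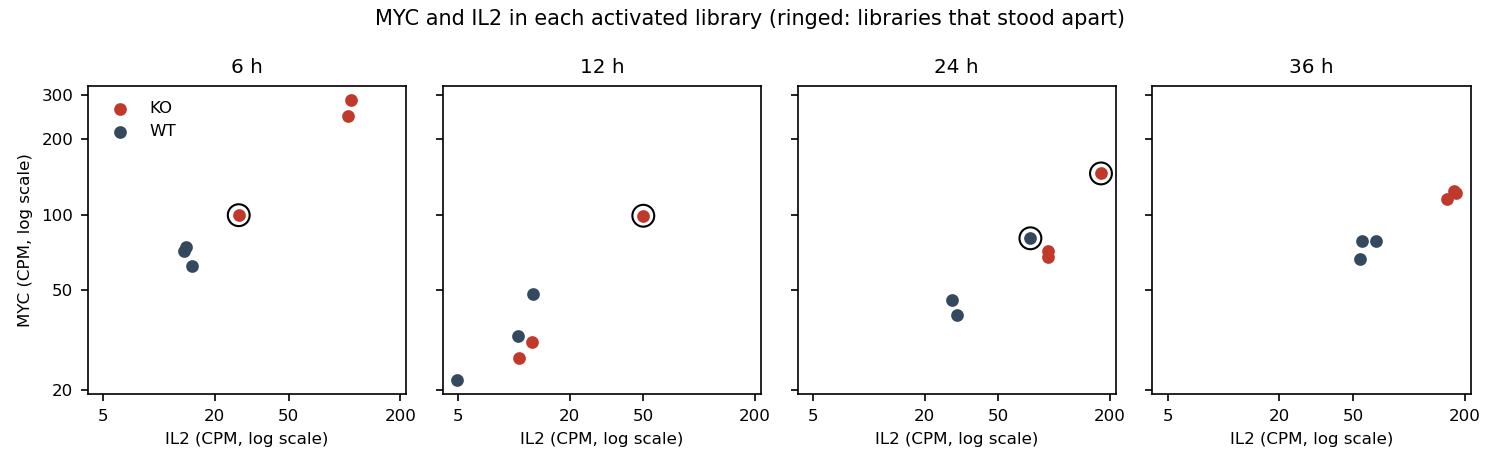
Level of MYC (vertical axis, CPM, log scale) against that of IL2 (horizontal axis, CPM, log scale) in each library at 6, 12, 24 and 36 h, with KO in red and WT in dark blue and 1 point per library. Rings mark the 4 libraries that stood apart, in which both genes are displaced together, downward in the KO library at 6 h and upward in those at 12 and 24 h.

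Activation changed between 3 and 7 of the 9 members at any one time. A member was called at an adjusted p under 0.05 in edgeR's quasi-likelihood test with Benjamini-Hochberg adjustment over all 21554 symbols. In KO cells, against 0 h, 3 members were called at 6 h (1 higher and 2 lower), where 27.2% of all symbols were called. At 12 h 6 were called in KO cells (3 higher, 3 lower; background 27.8%), at 24 h 5 (2 higher, 3 lower; background 32.8%) and at 36 h 5 (2 higher, 3 lower; background 36.7%). In WT cells 3 members were called at 6 h (2 higher and 1 lower; background 22.4%) and 5 at 12 h (3 higher, 2 lower; background 30.3%). At 24 h 7 were called in WT cells (4 higher, 3 lower; background 34.3%), and at 36 h 6 (3 higher, 3 lower; background 39.1%). With 9 members, 1 member is a large step in these shares, and at 6 h the share of members called was near that of all symbols in both genotypes.

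Between genotypes, members were called most often at 6 h. There 5 of the 9 differed between KO and WT cells, 1 higher and 4 lower in KO, where 9.97% of all symbols were called. At 0 h 2 differed (1 higher, 1 lower; background 6.07%), at 12 h 1 (lower; background 11.6%), at 24 h 1 (lower; background 9.72%) and at 36 h 3 (all lower; background 13.5%). The change from 0 h itself differed between genotypes for 4 members at 6 h (1 higher and 3 lower in KO; background 3.01%) and for none at 12 h (background 2.06%). It differed for 2 at 24 h (both lower; background 3.54%) and for 4 at 36 h (1 higher, 3 lower; background 9.33%). Over the 4 later times jointly, 4 members had a course that differed between genotypes, MYCN, MXD1, MXD3 and MXD4, with adjusted p of 0.000473, 0.00797, 0.000586 and 0.0118 in edgeR's test, where 9.84% of all symbols were called. For MYC the joint adjusted p was 0.109 in the same test. Without the libraries that stood apart MYC passed the threshold jointly, with the value given in the closing section. At 12 h the differences in change held 0 members at the adjusted threshold in edgeR, 3 at an unadjusted p under 0.05, and 1 in DESeq2's Wald test. All comparisons with 0 h share the 0 h libraries of their genotype, so the times are not independent of one another.

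**Figure D2:**
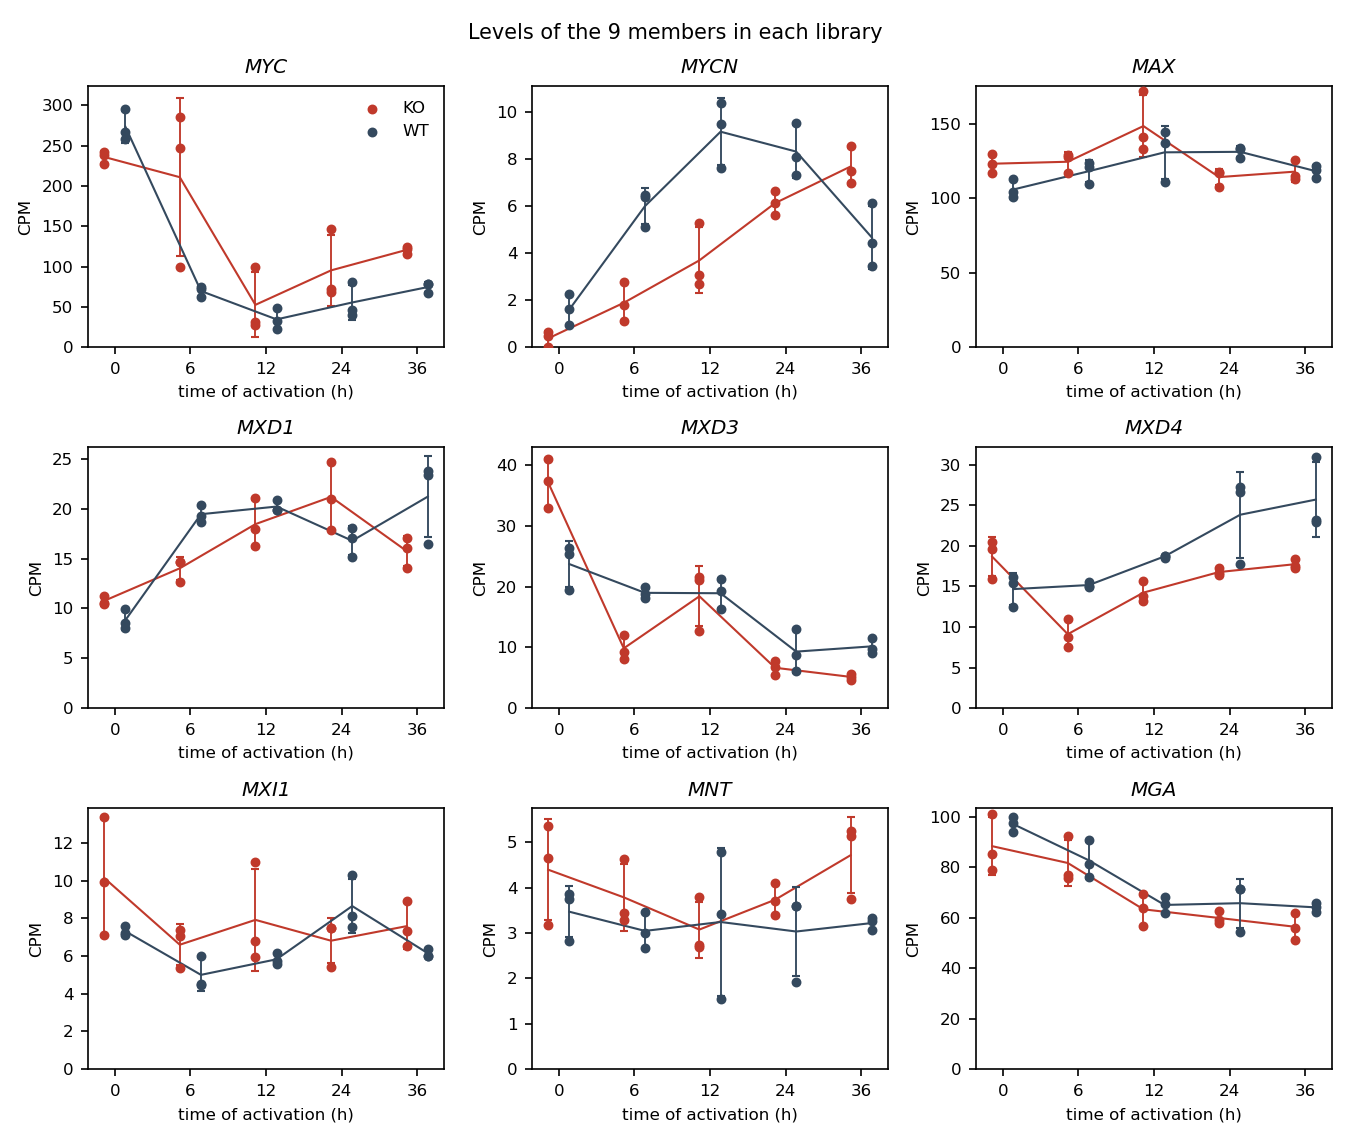
Level in CPM (vertical axes, starting at 0) of the 9 members at 0, 6, 12, 24 and 36 h (horizontal axes, times evenly spaced), KO in red and WT in dark blue, 1 point per library with lines through group means and bars of 1 SD (n = 3). MYC is high at 0 h in both genotypes and at 6 h in 2 of the 3 KO libraries, while MXD3 and MXD4 lie lower in KO than in WT at 6 and 36 h.

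Per kilobase of exon, MYC was the most abundant member at 0 h, with 78.6 ± 2.64 CPM per kb in KO cells and 91.2 ± 6.62 CPM per kb in WT cells. MAX followed with 30.1 ± 1.59 CPM per kb in KO cells and 25.8 ± 1.52 CPM per kb in WT cells. The repressors were lower, led by MXD3 at 11.3 ± 1.22 CPM per kb in KO and 7.2 ± 1.14 CPM per kb in WT cells, and by MGA at 5.82 ± 0.752 and 6.4 ± 0.196 CPM per kb in KO and WT cells. MXD4, MXI1, MXD1, MNT and MYCN followed, each at 4.6 CPM per kb or less in both genotypes at 0 h. Exon lengths came by symbol from GENCODE 29 (GRCh38), which is not the build of the count files, so these levels rank members only roughly. MAX varied little, and its group means stayed between 27.9 and 36.2 CPM per kb in KO cells and between 25.8 and 32 CPM per kb in WT cells. MYC spanned 17.5 to 78.6 CPM per kb in KO cells and 11.5 to 91.2 CPM per kb in WT cells.

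MYC, the activator at the centre of the network, fell on activation in both genotypes, by 6 h in WT cells and by 12 h in KO cells, and at 6 h it stood 3.03-fold higher in KO than in WT cells. Before activation it measured 239, 227 and 242 CPM in the KO libraries and 258, 296 and 267 CPM in the WT libraries. At 6 h the KO libraries held 286, 99.6 and 247 CPM and the WT libraries 71.8, 62.7 and 74.2 CPM. The 2 genotypes did not overlap at either time, though at 0 h the KO libraries were the lower ones and by little, while at 6 h every KO library lay above every WT library and 2 of the 3 were above the highest KO library at 0 h. The difference at 6 h was 1.6 on the log2 scale (SE 0.348, adjusted p = 0.00195, edgeR's quasi-likelihood test), and that at 0 h was -0.21 (SE 0.339, adjusted p = 0.797). It remained past the threshold with each of the 6 libraries left out in turn, between 1.32 and 1.94. Whether fewer cells express MYC or each cell holds less of it cannot be told apart in these bulk libraries.

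At 12 h MYC reached its lowest level in both genotypes. The KO libraries held 99.1, 26.9 and 31.3 CPM and the WT libraries 48.3, 32.8 and 22 CPM, so that 2 of the KO libraries lay within the range of WT and 1 lay far above it. The difference of 0.62 (SE 0.354, adjusted p = 0.279) was not called, and without KO 12 h replicate 1, which stood apart, it was -0.22. At 24 h the libraries held 68.1, 71.5 and 146 CPM in KO cells and 39.8, 45.7 and 80.6 CPM in WT cells, and in each genotype 1 library lay far above the other 2, both among those that stood apart.

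At 36 h MYC measured 122, 116 and 124 CPM in KO libraries and 78.3, 66.8 and 78.4 CPM in WT libraries, a tight spread with no overlap. The log2 differences of 0.78 at 24 h (SE 0.348, adjusted p = 0.174) and 0.69 at 36 h (SE 0.344, adjusted p = 0.2) were not called in the fit of all 30 libraries, which gives MYC 1 spread for all times. In a fit of the 6 libraries of 36 h alone the difference was 0.66 with an adjusted p of 7.49e-06, whereas the 6 libraries of 24 h alone gave 0.77 with an adjusted p of 0.197. Without the 4 libraries that stood apart the difference at 24 h was 0.72 with an adjusted p of 0.00347. None of the 6 fits that left out 1 library called it, and there it ranged from 0.35 to 1.17.

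Within genotypes, the log2 difference of MYC at 6 h against 0 h was -0.16 in KO cells (SE 0.338, adjusted p = 0.788) and -1.97 in WT cells (SE 0.352, adjusted p = 5.47e-05). The KO value has no settled sign, as it was 0.17 without KO 6 h replicate 2 and 0.15 without the libraries that stood apart, and was called in neither case. The difference between these changes was 1.81 (SE 0.484, adjusted p = 0.0315, edgeR's test of the interaction). It was past the threshold in 2 of the 12 fits that left out 1 of the libraries involved, where it ranged from 1.52 to 2.16, and it was 2.15 with an adjusted p of 7.83e-10 without the libraries that stood apart. At 12 h MYC had fallen by 2.17 on the log2 scale in KO cells and by 3 in WT cells. The smaller KO value rests on KO 12 h replicate 1, without which the fall in KO cells was 3.02 and the difference between the changes was -0.01, against 0.83 with it. At 24 h the fall in KO cells was 1.31, or 1.73 without the libraries that stood apart, and that in WT cells 2.3, or 2.67 without them. The changes at 24 h differed by 0.99 (adjusted p = 0.313), or by 0.94 without those libraries (adjusted p = 0.00438), and none of the 12 fits with 1 library left out called that difference. At 36 h MYC had fallen by 0.97 in KO cells (adjusted p = 0.0247) and by 1.87 in WT cells (adjusted p = 4.96e-05). The fall at 36 h in KO cells kept its call in 1 of 6 fits with a library left out. In the order of the 10 groups, WT at 0 h was highest and its libraries did not overlap those of the next group, KO at 0 h, while every later pair of neighbours overlapped, down to WT at 12 h as the lowest.

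MYCN, the paralog that is otherwise known from the developing nervous system and neuroblastoma, rose on activation in both genotypes. It was lower in KO cells up to 12 h. At 0 h it had 11, 0 and 17 counts in the KO libraries, or 0.468, 0 and 0.639 CPM, and 58, 7 and 44 counts in the WT libraries, or 2.25, 0.939 and 1.61 CPM. The count of 0 fell in the shallowest library, where 3 counts would have been 0.528 CPM, and no KO library reached the lowest WT library. The difference at 0 h was -1.82 (SE 0.412, adjusted p = 0.00497), and it missed the threshold, at an adjusted p of 0.0743, when WT 0 h replicate 1 was left out.

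At 6 h MYCN measured 2.76, 1.09 and 1.8 CPM in KO libraries and 5.11, 6.49 and 6.39 CPM in WT libraries, and at 12 h 5.3, 2.7 and 3.07 CPM in KO libraries and 10.4, 9.47 and 7.62 CPM in WT libraries. No library of KO reached one of WT at either time, and the log2 differences were -1.67 (SE 0.306, adjusted p = 0.000261) and -1.31 (SE 0.29, adjusted p = 0.00238). At 24 h the KO libraries, at 5.62 to 6.63 CPM, still lay below the WT libraries, at 7.33 to 9.55 CPM. The difference of -0.44 there was not called (SE 0.284, adjusted p = 0.396, edgeR's test). At 36 h the libraries held 7.51, 6.99 and 8.55 CPM in KO and 6.12, 3.44 and 4.43 CPM in WT, so the order was turned round. That difference of 0.69 (SE 0.287, adjusted p = 0.112) was not called, though a fit of the 6 libraries of 36 h alone gave 0.66 with an adjusted p of 0.0331. Group means of KO cells were higher at each later time and stood 3.98 on the log2 scale above 0 h at 36 h (SE 0.379, adjusted p = 1.44e-10), whereas WT cells were highest at 12 h and stood 1.46 above 0 h at 36 h (SE 0.32, adjusted p = 0.000352). The change from 0 to 36 h was larger in KO cells by 2.52 (SE 0.503, adjusted p = 0.00127) and stayed past the threshold in all 12 fits with a library left out. Per kb of exon, the highest group means of MYCN, 2.95 CPM in KO and 3.52 CPM in WT cells, stayed below the lowest of MYC, 17.5 CPM in KO and 11.5 CPM in WT cells.

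MAX, the partner that the others need to bind E-box sites, moved little. It measured 117, 130 and 123 CPM in KO libraries and 104, 113 and 101 CPM in WT libraries at 0 h, and 133 to 172 CPM in KO and 111 to 145 CPM in WT at 12 h. It rose at 12 h by 0.27 in KO cells (SE 0.0996, adjusted p = 0.0384) and by 0.31 in WT cells (SE 0.0998, adjusted p = 0.0181), and by 0.31 at 24 h in WT cells (SE 0.0999, adjusted p = 0.0136). The rise at 12 h kept its call in 3 of 6 fits with a library left out in KO cells and in 2 of 6 in WT cells. Differences between genotypes lay between -0.2 and 0.22 at the 5 times and none was called.

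Among the repressors, MXD3 and MXD4 were lower in KO than in WT cells at both 6 and 36 h. MXD3, which in mouse tissues is expressed in proliferating cells rather than in differentiating ones, was highest before activation. It then measured 37.4, 41 and 33 CPM in KO libraries and 19.4, 26.4 and 25.3 CPM in WT libraries, with KO above WT throughout. The difference was 0.65 (SE 0.201, adjusted p = 0.0493), and the call was lost in each of the 6 fits that left out 1 library. At 6 h MXD3 measured 9.26, 12.1 and 8.14 CPM in KO libraries and 20, 18.1 and 18.8 CPM in WT libraries, with KO now below WT throughout.

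The difference at 6 h was -0.95 (SE 0.206, adjusted p = 0.00195), and that of the change from 0 h was -1.59 (SE 0.288, adjusted p = 0.00104). No difference in MXD3 was called between genotypes at 12 h, where it measured 12.7, 21.5 and 21 CPM in KO and 19.2, 16.3 and 21.2 CPM in WT libraries. The low KO library there is replicate 1, the one with high MYC. At 36 h it measured 5.6, 5.19 and 4.61 CPM in KO and 11.6, 9.79 and 9.09 CPM in WT libraries, a difference of -1 on the log2 scale (SE 0.222, adjusted p = 0.00184). Against 0 h, MXD3 at 36 h was lower by 2.85 on the log2 scale in KO cells (SE 0.221, adjusted p = 1.08e-12) and by 1.21 in WT cells (SE 0.21, adjusted p = 1.59e-05), and the changes differed by -1.64 (SE 0.3, adjusted p = 0.000456). The differences in change at 6 and 36 h passed in all 12 fits with a library left out, and that at 24 h, of -1.13 (adjusted p = 0.0272), in 7 of 12. In GENCODE 29, 22.2% of the exon bases of MXD3 overlap those of PRELID1 on the other strand, and whether reads were counted by strand is not given in the sources used here. PRELID1 averaged 87.5 ± 11.2 CPM in KO and 81.7 ± 17.8 CPM in WT cells at 6 h. At 36 h it averaged 148 ± 10.6 CPM in KO and 101 ± 5.28 CPM in WT cells. Its log2 differences between genotypes were 0.1 at 6 h (adjusted p = 0.843, edgeR's test) and 0.54 at 36 h (adjusted p = 0.0666). At 24 h the difference was 0.86 (adjusted p = 0.00503). The part of PRELID1 reads in the MXD3 values was not tested.

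MXD4, a repressor of the same family, fell at 6 h in KO cells, with no change called in WT cells. At 0 h it measured 20.5, 19.6 and 15.9 CPM in KO libraries and 12.4, 15.4 and 16.2 CPM in WT libraries, with overlap. At 6 h it measured 7.51, 11 and 8.82 CPM in KO libraries and 14.9, 15.1 and 15.5 CPM in WT libraries, with a clear gap. The change from 0 h was -1.03 in KO cells (SE 0.163, adjusted p = 6.98e-06) and 0.05 in WT cells (SE 0.16, adjusted p = 0.883), and the 2 changes differed by -1.07 (SE 0.228, adjusted p = 0.00565), in all 12 fits with a library left out.

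Group means of MXD4 were higher at each time after 6 h in both genotypes. At 36 h it measured 18.4, 17.3 and 17.5 CPM in KO libraries and 23.2, 31 and 22.9 CPM in WT libraries, again with no overlap. The log2 difference from 0 h was then -0.07 in KO cells (SE 0.159, adjusted p = 0.798) and 0.8 in WT cells (SE 0.16, adjusted p = 0.000112), and the changes differed by -0.87 (SE 0.225, adjusted p = 0.0121). Between genotypes, the log2 difference of MXD4 was -0.73 at 6 h (adjusted p = 0.00215), -0.51 at 24 h (adjusted p = 0.0352) and -0.53 at 36 h (adjusted p = 0.0207). The call at 6 h held in all 6 fits with a library left out, that at 24 h in 1 of 6 and that at 36 h in 2 of 6. Without the libraries that stood apart the difference at 24 h was -0.69, with an adjusted p of 0.00556.

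MXD1, the family member known to be induced when myeloid cells differentiate, rose in both genotypes, with a smaller change at 6 h in KO cells. It measured 11.3, 10.4 and 10.6 CPM in KO libraries and 8, 9.93 and 8.54 CPM in WT libraries at 0 h, and 14.7, 12.7 and 14.7 CPM in KO libraries and 20.4, 19.3 and 18.7 CPM in WT libraries at 6 h. KO libraries were thus all above WT before activation and all below at 6 h. The difference at 0 h, 0.31 (SE 0.156, adjusted p = 0.255, edgeR's test), was not called. The change from 0 to 6 h was 0.37 in KO cells (SE 0.151, adjusted p = 0.0646) and 1.16 in WT cells (SE 0.151, adjusted p = 3.16e-07), and the 2 changes differed by -0.79 (SE 0.213, adjusted p = 0.0332), in 2 of 12 fits with a library left out. The highest mean of KO cells, 21.2 ± 3.4 CPM, came at 24 h. The difference between genotypes of -0.47 at 6 h (SE 0.145, adjusted p = 0.0304) was called, but in none of the 6 fits that left a library out, nor without the libraries that stood apart (-0.41, adjusted p = 0.0846). At 36 h the difference was -0.44 (SE 0.145, adjusted p = 0.0389), with 1 of 6 such fits calling it and with overlapping libraries of 14.1, 16.1 and 17.1 CPM in KO and 23.8, 16.5 and 23.4 CPM in WT.

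The promoters of these 3 repressors are shown because they are the MXD genes whose levels differed between genotypes, so that their upstream sequence can be read beside the values. Each run covers 250 bases before to 50 after the start site, 5′ to 3′ on the strand of the gene, from RefSeq on GRCh38.p14. Capitals mark the E-box CACGTG, bound by MYC and MAX, and the site TGANTCA, bound by AP-1, the factor that PMA activates. Both motifs read the same on both strands, the marked matches do not overlap, and a match is no evidence of binding.
MXD3, chr5:177312703-177313002, minus strand: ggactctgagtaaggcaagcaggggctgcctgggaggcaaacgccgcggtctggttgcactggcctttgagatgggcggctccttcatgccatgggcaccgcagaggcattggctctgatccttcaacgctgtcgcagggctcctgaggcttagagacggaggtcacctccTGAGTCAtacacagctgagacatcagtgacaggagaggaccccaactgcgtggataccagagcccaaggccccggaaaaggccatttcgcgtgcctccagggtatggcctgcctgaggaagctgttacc
MXD4, chr4:2262060-2262359, minus strand: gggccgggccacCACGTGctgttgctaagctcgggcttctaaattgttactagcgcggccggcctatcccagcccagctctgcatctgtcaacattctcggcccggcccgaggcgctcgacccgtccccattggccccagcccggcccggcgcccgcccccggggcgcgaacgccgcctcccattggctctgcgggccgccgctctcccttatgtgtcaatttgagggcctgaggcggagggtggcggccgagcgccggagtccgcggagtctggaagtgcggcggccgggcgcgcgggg
MXD1, chr2:69914859-69915158, plus strand: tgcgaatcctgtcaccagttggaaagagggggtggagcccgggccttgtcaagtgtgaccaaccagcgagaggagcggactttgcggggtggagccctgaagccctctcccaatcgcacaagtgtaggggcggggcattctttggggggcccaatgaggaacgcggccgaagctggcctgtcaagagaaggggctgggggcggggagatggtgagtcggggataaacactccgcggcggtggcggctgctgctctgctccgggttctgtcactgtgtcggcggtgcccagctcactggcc
In MXD3 the TGANTCA match starts 79 bases before the start site, and in MXD4 the CACGTG match starts 238 bases before it. The window of MXD1 does not hold these letters. Among all 35116 promoter windows, CACGTG occurs in 7.26% and TGANTCA in 7.71%. The 8 members that had an entry, all but MYC, had 13 windows in all, and the only further match was a CACGTG in MNT, 193 bases before its start.

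MXI1, MNT and MGA were not called between genotypes at any time. MXI1, which represses at the same sites as the MXD proteins, had group means between 6.6 and 10.1 CPM in KO cells and between 5 and 8.66 CPM in WT cells, and its log2 differences between genotypes ran from -0.34 at 24 h to 0.44 at 12 h. MNT, a widely expressed antagonist of MYC, had group means of 3.08 to 4.72 CPM in KO and 3.03 to 3.47 CPM in WT cells. Its differences ran from -0.05 at 12 h to 0.56 at 36 h (SE 0.29, adjusted p = 0.224). Neither MXI1 nor MNT passed the threshold against 0 h at any time in either genotype in the fit of all libraries. Without the libraries that stood apart MXI1 passed it at 12 h in KO cells (-0.63, adjusted p = 0.0329, against -0.31 with them). KO differences from 0 h in the fit of all libraries were as large as -0.57 for MXI1 at 6 h (SE 0.222, adjusted p = 0.0523).

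MGA, a large protein with a T-box domain as well as the MAX-binding one and the scaffold of a Polycomb complex, fell in both genotypes. It measured 101, 85.3 and 78.8 CPM in KO libraries and 97.6, 93.9 and 99.8 CPM in WT libraries at 0 h, and 56, 62 and 51.3 CPM in KO libraries and 62.4, 65.7 and 64.2 CPM in WT libraries at 36 h. All libraries at 36 h lay below all libraries at 0 h. The changes at 36 h were -0.65 in KO cells (SE 0.114, adjusted p = 1.93e-05) and -0.6 in WT cells (SE 0.113, adjusted p = 5.25e-05), and the difference between them was -0.05 (SE 0.16, adjusted p = 0.909).

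**Figure D3:**
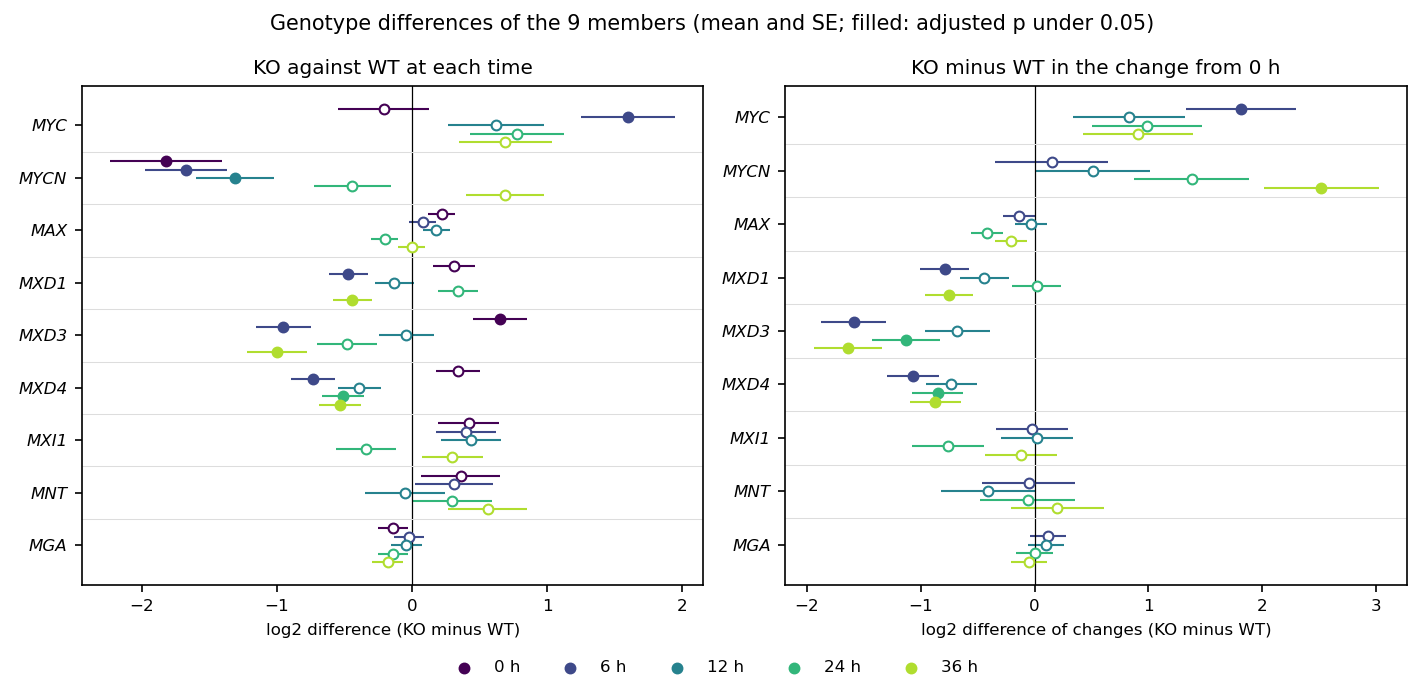
Log2 difference between KO and WT at each time (left panel) and log2 difference of the changes from 0 h, KO minus WT (right panel), for the 9 members, with bars of 1 SE and colours for time. Filled points passed an adjusted p of 0.05: on the right, MYC at 6 h and MYCN at 36 h lie to the positive side, and the filled points of MXD1, MXD3 and MXD4 all lie to the negative side.

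Set against one another within each library, MYC and the 6 repressors gave ratios that differed most at 6 h. Levels per kb were used so that genes of different length could be added, and the ratios describe transcripts, since protein was not measured. At 0 h MYC was 2.64, 2.78 and 3.4 times the summed repressors in KO libraries and 3.99, 4.42 and 4.46 times in WT libraries, lower in KO throughout. At 6 h the ratio was 2.11, 5.14 and 6.45 in KO libraries and 1.04, 1.19 and 1.2 in WT libraries, higher in KO throughout, the lowest KO value coming from the library that stood apart. At 36 h it was 2.5, 2.64 and 2.75 in KO libraries and 1.11, 1.32 and 1.38 in WT libraries, again higher in KO throughout. At 12 h the ratios overlapped, with 0.443, 0.56 and 1.78 in KO and 0.348, 0.573 and 0.773 in WT libraries. At 24 h they overlapped as well, with 1.32, 1.53 and 3.02 in KO and 0.667, 0.708 and 1.8 in WT libraries. The summed repressors themselves were 14.8 to 16 CPM per kb in KO and 20 to 20.6 CPM per kb in WT libraries at 6 h, and 15 to 15.4 and 18.9 to 20 CPM per kb in KO and WT libraries at 36 h. Libraries of the 2 genotypes did not overlap in either term at 6 and 36 h. At 0 h the sum was higher in KO throughout, at 23.7 to 28.7 CPM per kb in KO and 19.5 to 22.3 CPM per kb in WT libraries. MYCN was not added to MYC in these ratios.

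**Figure D4:**
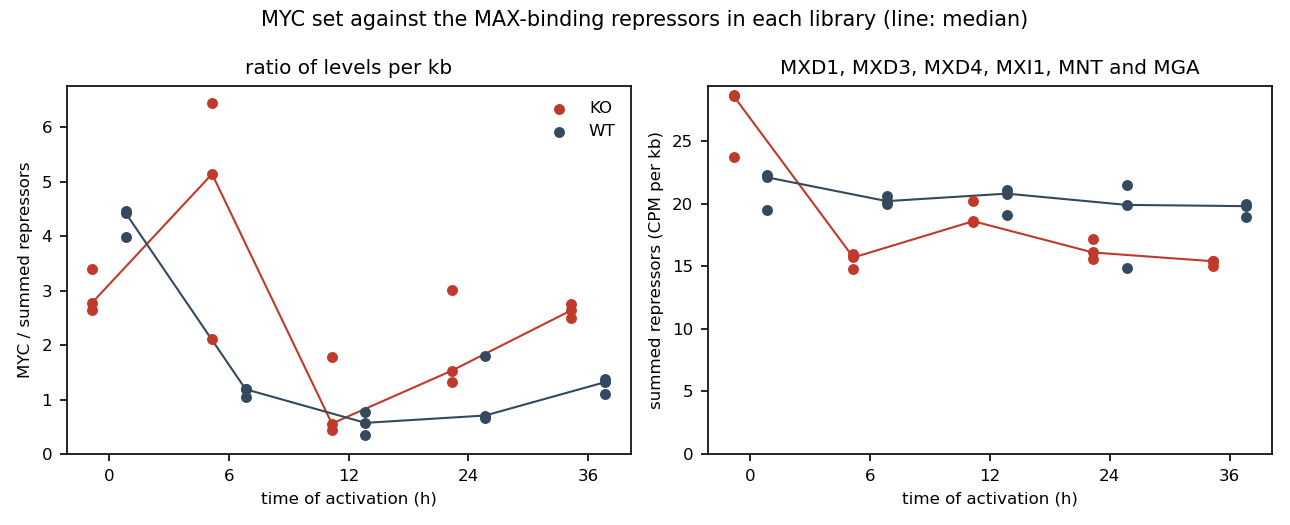
Left panel: ratio of MYC to the summed MXD1, MXD3, MXD4, MXI1, MNT and MGA, each in CPM per kb of exon, by time (evenly spaced), KO in red and WT in dark blue, 1 point per library and lines through medians. Right panel: the summed repressors in CPM per kb. The ratio is higher in all KO libraries at 6 and 36 h, and the sum is lower there.

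Of the genes that MYC is known to activate, 64 were tested, and at the 4 times after activation 9 to 31 of them were called lower than at 0 h in KO cells and 29 to 50 in WT cells. The list was put together from textbook targets in ribosome production, nucleotide and polyamine synthesis, chaperones and the cell cycle. None of the 9 members belongs to it. Like the other lists, it was chosen with earlier results of these data known. The shares called therefore describe the list and are no independent support. In KO cells 9, 31, 21 and 17 of them were lower than at 0 h at 6, 12, 24 and 36 h, and 18, 8, 9 and 18 were higher. In WT cells 29, 50, 44 and 41 were lower and 3, 3, 6 and 5 were higher at the same times. Of all symbols, 13.2, 13.7, 16.7 and 18% were called lower and 14, 14.1, 16.1 and 18.6% higher in KO cells at these times. In WT cells 10.5, 15.6, 17 and 19% of all symbols were called lower and 11.8, 14.8, 17.3 and 20.1% higher. The median log2 change from 0 h was 0.13, -0.35, -0.16 and 0 in KO cells and -0.33, -0.64, -0.54 and -0.55 in WT cells at these times, while over all 21554 symbols it lay between 0.03 and 0.05 in KO cells and between 0.01 and 0.12 in WT cells.

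Between genotypes, 22 of the 64 were higher and 1 was lower in KO cells at 6 h, or 35.9% called against 9.97% of all symbols, and at 36 h 33 were higher and 0 lower, or 51.6% against 13.5%. At 0 h none was higher and 6 were lower, at 12 h 8 were higher and 2 lower, and at 24 h 16 were higher and 2 lower. These are 9.38, 15.6 and 28.1% called at 0, 12 and 24 h, against 6.07, 11.6 and 9.72% of all symbols. The median difference was -0.13, 0.29, 0.12, 0.22 and 0.4 at 0, 6, 12, 24 and 36 h, beside -0.01 to 0 over all symbols. The change from 0 h differed for 11, 2, 6 and 28 of them at 6, 12, 24 and 36 h, upward in KO for all of these but 1 at 24 h. That is 17.2, 3.12, 9.38 and 43.8% called, against 3.01, 2.06, 3.54 and 9.33% of all symbols. The 23 calls at 6 h became 36 without the libraries that stood apart. They became 10 or 15 without KO 6 h replicate 1 or 3, 14 or 11 without WT 6 h replicate 1 or 3, and 16 to 23 without another library of that time. The 33 calls at 36 h became 14 without WT 36 h replicate 2, the shallowest library of that time, 19 and 21 without KO 36 h replicate 1 and 3, and 22 to 31 without another. Of the genes whose change from 0 h differed, the 11 at 6 h became 37 without the libraries that stood apart, 21 without KO 6 h replicate 2 alone and 6 to 11 without another library. The 6 at 24 h became 21 without the libraries that stood apart, 17 without WT 24 h replicate 3 alone and 3 without KO 24 h replicate 3. The 28 at 36 h became 15 without WT 36 h replicate 2, 16 without KO 36 h replicate 3 and 18 without KO 0 h replicate 2. The 6 calls between genotypes at 0 h became 2 to 4 without 1 library, and 17 in a fit of the compared libraries only, 14 with the replicate number as a block and 10 without a filter. The 18 at 24 h became 11 without KO 24 h replicate 3 and 8 in a fit of the compared libraries only. With the replicate number as a block, 33 were called between genotypes at 6 h. With that block, the change from 0 h differed for 32 at 6 h and for 24 at 24 h. IL2, a marker of activation, was also higher in KO cells at 6 h (2.48, SE 0.449, adjusted p = 0.000266) and 36 h (1.54, SE 0.423, adjusted p = 0.0123). In edgeR's test it was called higher at 12 h (1.38, adjusted p = 0.0495, libraries overlapping) and 24 h (1.45, adjusted p = 0.0252) as well. CD69, another activation marker, was called lower in KO at 0 h (-1.51, adjusted p = 7.75e-06). Its differences of -0.03, -0.4, -0.12 and -0.17 at 6, 12, 24 and 36 h were not called. The part of activation in these counts was not tested.

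ODC1, which makes putrescine in polyamine synthesis, was among the genes with the smallest p between genotypes at 6, 12 and 36 h. It averaged 307 ± 42.5 CPM in KO cells and 87 ± 2.19 CPM in WT cells at 6 h, a difference of 1.82 (SE 0.231, adjusted p = 8.62e-07), and 287 ± 89 CPM in KO and 79.5 ± 31.6 CPM in WT cells at 36 h, a difference of 1.85 (SE 0.233, adjusted p = 6.97e-07). The mitochondrial chaperone HSPD1 averaged 1500 ± 71.6 CPM in KO and 690 ± 3.86 CPM in WT cells at 6 h (1.12, SE 0.131, adjusted p = 1.89e-07), and its partner HSPE1 550 ± 35.9 and 232 ± 1.55 CPM in KO and WT cells (1.25, SE 0.169, adjusted p = 2.66e-06). CCND2, a cyclin of the G1 phase, averaged 34 ± 10.5 CPM in KO and 9.69 ± 0.404 CPM in WT cells at 24 h (1.81, SE 0.301, adjusted p = 8.24e-05). IMPDH2, which commits nucleotides to guanine, averaged 497 ± 24.6 CPM in KO and 283 ± 31.4 CPM in WT cells at 36 h (0.81, SE 0.135, adjusted p = 5.38e-05).

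Before activation some genes of the list were lower in KO cells. LDHA, the lactate dehydrogenase subunit of glycolytic cells, averaged 1670 ± 60.1 CPM in KO and 2780 ± 75.9 CPM in WT cells at 0 h (-0.73, SE 0.123, adjusted p = 0.000153), and NOLC1, a nucleolar chaperone, 208 ± 9.24 CPM in KO and 434 ± 23.5 CPM in WT cells (-1.06, SE 0.172, adjusted p = 0.000102). The change of LDHA from 0 to 36 h differed by 1.23 between KO and WT cells (SE 0.173, adjusted p = 1.39e-05). Its log2 difference between genotypes was -0.54, -0.18, 0.36 and 0.5 at 6, 12, 24 and 36 h. For NOLC1 it stayed below 0, at -0.35, -0.57, -0.34 and -0.17 at these times. Summed over the 64 genes, the level was 16800 to 18700 CPM in KO libraries and 14300 to 14600 CPM in WT libraries at 6 h, and 15000 to 16300 CPM in KO and 10600 to 12400 CPM in WT libraries at 36 h. The lowest of the KO libraries at 6 h was again the one with low MYC, and the KO library with high MYC at 12 h had the highest sum of its group, 14900 CPM against 11200 and 11500 CPM.

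**Figure D5:**
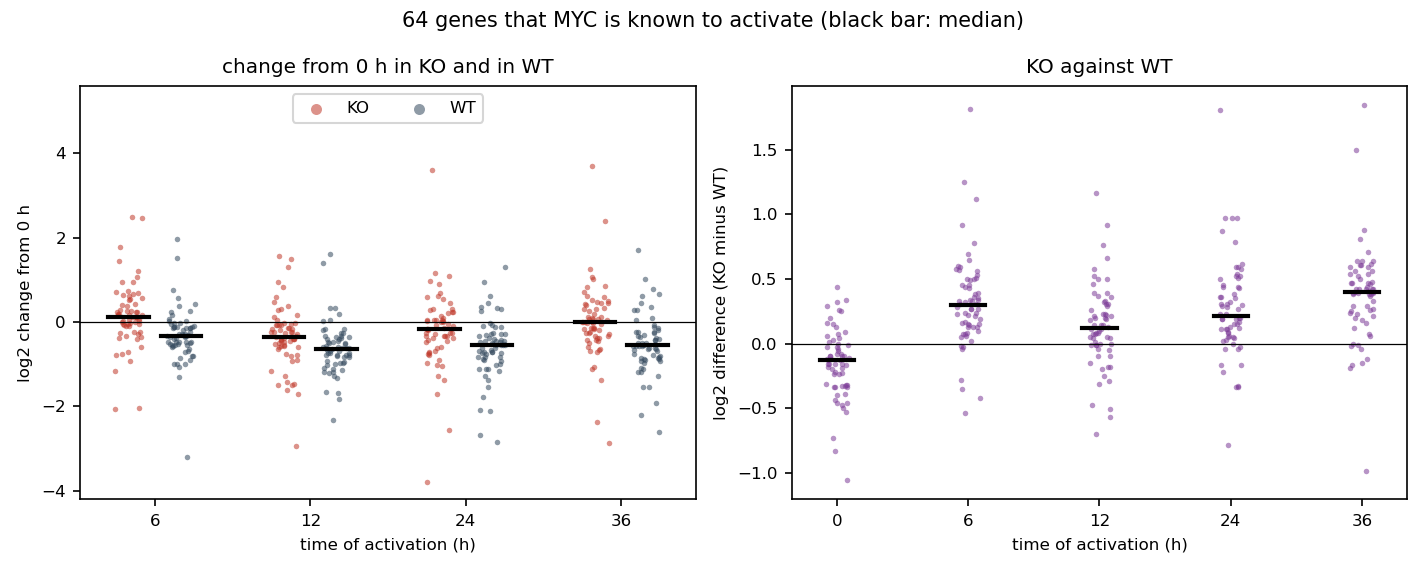
Left panel: log2 change from 0 h of the 64 genes that MYC is known to activate, at 6, 12, 24 and 36 h, KO in red left of WT in dark blue, 1 point per gene with black bars at medians of 0.13, -0.35, -0.16 and 0 in KO and -0.33, -0.64, -0.54 and -0.55 in WT. Right panel: log2 difference between KO and WT of the same genes at 0, 6, 12, 24 and 36 h, with medians above 0 at each time after activation.

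Genes that MYC is known to repress moved in both directions. Of the 13 tested, 5 were higher and 2 lower in KO cells at 6 h, and 4 were higher and 3 lower at 36 h, with median differences of 0.1 and 0.05. That is 53.8% called at either time, where 9.97% of all symbols were called at 6 h and 13.5% at 36 h. CDKN1A, the inhibitor of cyclin-dependent kinases, averaged 157 ± 31.5 CPM in KO and 47 ± 3.62 CPM in WT cells at 6 h (1.74, SE 0.174, adjusted p = 6.97e-09) and 29.2 ± 3.21 CPM in KO and 4.8 ± 1.57 CPM in WT cells at 36 h (2.53, SE 0.203, adjusted p = 4.96e-11). GADD45A, a stress-induced growth inhibitor, averaged 20.5 ± 1.05 CPM in KO and 3.64 ± 1.01 CPM in WT cells at 6 h (2.49, SE 0.256, adjusted p = 1.27e-08). The antiproliferative gene BTG1 averaged 111 ± 11.5 CPM in KO and 51.3 ± 9.54 CPM in WT cells at 36 h (1.12, SE 0.166, adjusted p = 1.01e-05). CCNG2, a cyclin linked to cell cycle arrest, had a change from 0 to 6 h that was lower in KO cells, with a difference of -1.85 (SE 0.333, adjusted p = 0.00102).

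A list of the MYC paralog MYCL and the MLX branch, which senses glucose and shares partners with the network, held 6 tested genes. Of these, 1 or 2 were called between genotypes at each time. Over all symbols the share called between genotypes was 6.07, 9.97, 11.6, 9.72 and 13.5% at 0, 6, 12, 24 and 36 h, and in lists this small 1 gene is a large step. TXNIP, a target of that branch that restrains glucose uptake and is also counted in the list of repressed genes, was called at all 5 times. It averaged 22.2 ± 0.408 CPM in KO and 2.92 ± 1.14 CPM in WT cells at 0 h (2.83, SE 0.315, adjusted p = 1.85e-07), and 13.4 ± 2.53 CPM in KO and 3.76 ± 0.514 CPM in WT cells at 36 h (1.83, SE 0.308, adjusted p = 6.46e-05). It was the higher in KO each time. MLX itself was higher in KO at 12 h, with 171 ± 14.2 CPM in KO and 131 ± 4.34 CPM in WT cells (0.38, SE 0.107, adjusted p = 0.0159).

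The SIN3 and NCOR corepressors, which the MXD proteins recruit, held 18 tested genes, of which 2, 4, 3, 4 and 4 were called between genotypes at 0, 6, 12, 24 and 36 h, or 11.1, 22.2, 16.7, 22.2 and 22.2%, beside 6.07, 9.97, 11.6, 9.72 and 13.5% of all symbols. HDAC2, a histone deacetylase of the SIN3 complex, was lower in KO at every time, with log2 differences of -0.63, -0.39, -0.57, -0.64 and -0.8 and adjusted p between 4.15e-09 and 0.000732. Within the Polycomb complex of MGA and MAX, 13 genes were tested and 1, 3, 2, 3 and 3 were called at the 5 times, or 7.69, 23.1, 15.4, 23.1 and 23.1%, beside the same shares of all symbols. WDR5 was higher in KO at 6 h by 0.83 (adjusted p = 0.00357) and at 12 h by 1.01 (adjusted p = 0.000667), and HDAC2 belongs to this list as well. The 18 coactivators and partners of MYC held 1, 2, 1, 2 and 4 calls, or 5.56, 11.1, 5.56, 11.1 and 22.2%. The 19 genes of MYC protein turnover held 1, 3, 2, 4 and 1 calls, or 5.26, 15.8, 10.5, 21.1 and 5.26%. Both lists lay below the share of all symbols at 0 and 12 h, and the turnover genes also at 36 h. PIM1, a kinase that phosphorylates MYC and its partners, was higher in KO at 6 h by 2.17 (adjusted p = 1.88e-05). SKP2, a ubiquitin ligase subunit that acts on MYC, was lower in KO, with log2 differences of -0.43 at 0 h (adjusted p = 0.00757) and -0.68 at 24 h (adjusted p = 4.02e-05).

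The genes most like each member across the 10 group means were named by Pearson's r of mean log2 CPM among 9800 genes. They are given as a description with no test, since the 10 means follow a common time course. MYC was most like SNHG17 (r = 0.981), ALKBH2 (0.97) and TIMM44 (0.967). MXD3 was most like ARHGEF39 (0.967), ARL6IP1 (0.959) and GPSM2 (0.959), and MXD4 like ARHGAP12 (0.956), KLF7 (0.951) and DYNC1H1 (0.943). MXD1 was closest to PCYT1A (0.971), and MGA to SLC35A4 (0.984). MAX and MXI1 had weaker matches, with ACAP2 at 0.902 and GPS1 at 0.891 as the closest, and MNT and MYCN, with group means below 10 CPM throughout, were left out.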

How the data were processed

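RNA of 30 libraries was sequenced, 3 for each of 10 groups of genotype and time. The authors deposited expected counts per gene symbol and library. Per the submitters' processing notes, cutadapt, STAR and DESeq2 were used with GRCh37 (hg19), with no versions named. For the counter and the strand setting, the sources used here name nothing. Fractional values occurred for 195 of 54300 symbols, making up 0.177% of the deposited values, and were rounded. All counts of the 9 members were whole. Totals of 5.64 to 28.2 M per library limit the precision of members below 10 CPM.

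The counts were fitted in edgeR 4.0.16 (R 4.3.3, limma 3.58.1) with TMM scaling, a filter with a count minimum of 10, and 1 mean for each of the 10 groups. The quasi-likelihood test was run for each contrast, with Benjamini-Hochberg adjustment over all 21554 symbols tested and calls at 0.05. The fit was checked on simulated counts. CPM are TMM-scaled counts per M, and per-kb levels divide them by exon lengths of GENCODE 29. The members and lists were chosen with earlier results of these data known, and the lists are textbook ones. All members were described. From each list, up to 3 called genes with the smallest p in a comparison could be named, and like genes by the highest r. Alternatives were DESeq2 1.42.0 (size factors, Wald test), no filter, robust spread, only the compared libraries, a replicate block, and each library left out. Leaving out the 4 libraries that stood apart was chosen after seeing the data. Replicate numbers were not used as pairs, since nothing in the labels ties them. MYC sequence and coordinates are not reported here.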

Additional observations from a re-analysis of the deposited data

Results flagged for a closer look

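Changes of members from 0 h that differed between KO and WT cells follow, by edgeR's quasi-likelihood test of the interaction with Benjamini-Hochberg adjustment. Of all symbols, 3.01, 2.06, 3.54 and 9.33% were called at 6, 12, 24 and 36 h. At 6 h the difference was 1.81 on the log2 scale for MYC (adjusted p = 0.0315), with MYC higher in each of the 3 KO libraries than in any WT library at that time. At 6 h it was -0.79 for MXD1 (adjusted p = 0.0332), -1.59 for MXD3 (adjusted p = 0.00104) and -1.07 for MXD4 (adjusted p = 0.00565), each lower in all 3 KO libraries than in any WT library. At 24 h it was -1.13 for MXD3 (adjusted p = 0.0272) and -0.85 for MXD4 (adjusted p = 0.028). With a library left out, the calls of MYC and MXD1 at 6 h each held in 2 of 12 fits, and those of MXD3 and MXD4 in all 12. The call of MXD3 at 24 h held in 7 of 12 and was lost in the fit of the compared libraries only. That of MXD4 at 24 h held in 3 of 12. It was lost in the fit of the compared libraries only (adjusted p = 0.0786) and with the replicate number as a block (-0.8, adjusted p = 0.053).

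At 36 h the difference in change was 2.52 for MYCN (adjusted p = 0.00127), whose 36 h libraries were all higher in KO than in WT. It was -0.75 for MXD1 (adjusted p = 0.0214), -1.64 for MXD3 (adjusted p = 0.000456) and -0.87 for MXD4 (adjusted p = 0.0121). With a library left out, the call of MXD1 held in 7 of 12 fits and that of MXD4 in 9 of 12. Those of MYCN and MXD3 held in all 12. The 0 h libraries enter each of these values, and at 0 h MXD3 was higher and MYCN lower in KO than in WT cells.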

How the results depend on the processing

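Of 62 called log2 differences of members, 46 kept their call under every alternative run and 16 lost it under at least one, and 0 changed sign. The larger shifts in the number of members called were as follows, and the cause was not tested. Smaller shifts are not all listed. For KO against WT at 6 h, MXD1 was called in 0 of 6 fits with a library left out. For 36 h against 0 h in KO cells, MYC was called in 1 of 6 such fits. With only the compared libraries it was 5 at 6 h against 0 h in WT, 0 for KO against WT at 24 h, 5 at 36 h, and 0 for the difference in change at 24 h. With DESeq2 size factors it was 1 for KO against WT at 0 h. Without a filter, and in DESeq2's Wald test, it was 2 for KO against WT at 12 h and 1 for the difference in change at 12 h. Without the libraries that stood apart it was 2 for KO against WT at 24 h. With 1 library left out it was 0 to 1 for KO against WT at 0 h (0 without WT 0 h replicate 1), 0 to 2 at 24 h and 1 to 2 at 36 h (1 without any of the KO 36 h libraries), and for the difference in change 2 to 3 at 6 h, 0 to 2 at 24 h and 2 to 4 at 36 h. For MYC, the joint adjusted p was 1.64e-10 without the libraries that stood apart. Deviations of same-number libraries correlated over 0.1 in 9 of 12 pairs (range -0.177 to 0.568), among them all pairs at 0 and 6 h. Since not every pair did and the labels tie no numbers, the block was kept as an alternative, and a shared batch was not tested. Under a replicate block, possible up to 24 h, MYC at 24 h was called between genotypes (adjusted p = 0.02) and in its change from 0 h (1 on the log2 scale, adjusted p = 0.0448), and MXD4 at 24 h in neither (adjusted p = 0.0534 and 0.053). The block changed no other call of a member. Differences in MYCN and MNT rest on few counts, down to 0 in 1 library of 5.64 M.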
